A study of Mus musculus with 2 samples.

Results

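The STAT proteins are the transcription factors of cytokine signaling, and the genes described here are *Stat2*, *Stat3*, *Stat4*, *Stat5a*, *Stat5b* and *Stat6*. They were picked by their symbols, by a rule that uses no measured value, although earlier results of these data were known when the family was chosen. They are 6 of the 27998 genes listed in the files. The transcripts were counted in single mononuclear phagocytes (MPs) from tumors of B16, a mouse melanoma line transplanted into the skin. The cells were sorted for MerTk and CD64, surface receptors of mature macrophages, and gave 1 library from Fcmr+/+ and 1 from Fcmr-/- C57Bl/6 mice. Fcmr is the receptor for the Fc part of IgM, and the Fcmr-/- mice carry no intact copy of its gene. The question put to these libraries was how loss of Fcmr alters the states of tumor MPs (TMPs). Both genotypes carried the same tumor, and the sources used here do not give the number of mice behind each library. With 1 library per genotype no difference could be tested, and genotype cannot be told apart from any other difference between the libraries.

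A cytokine bound to its receptor activates kinases of the Janus family (JAKs), which phosphorylate STAT proteins on tyrosine, and the STATs then pair, enter the nucleus and bind DNA. *Stat2* works with *Irf9* downstream of the type I interferon receptor, *Stat3* serves the IL-6 and IL-10 receptors, and *Stat4* is known best for IL-12 responses of T and NK cells. *Stat5a* and *Stat5b*, a closely related pair, serve the GM-CSF receptor and the common gamma chain, while *Stat6* serves IL-4 and IL-13, the cytokines of alternative macrophage activation. Activation is a matter of phosphorylation, which RNA does not show, so every value below is a transcript level.

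After filters on genes per cell and mitochondrial content, 6352 Fcmr+/+ cells with 128408544 unique molecular identifiers (UMIs, each 1 captured transcript) and 7999 Fcmr-/- cells with 124630621 UMIs were kept. The median cell held 17973.5 UMIs in the Fcmr+/+ and 12911 in the Fcmr-/- library. A level is given as CPM, the UMIs of a gene summed over a group of cells and scaled to 1000000 UMIs of that group. Intervals are exact 95% intervals, Poisson for CPM, conditional binomial for ratios and Clopper-Pearson for shares, and cover counting error only, not the spread between mice. A set of 73 barcodes occurred in both libraries. *Fcmr* itself had 7 UMIs in the Fcmr+/+ and 6 in the Fcmr-/- library, too few to check the genotypes. All 9 macrophage markers were detected, at 10420 CPM summed in Fcmr+/+ and 10053 CPM in Fcmr-/- cells. *C1qb* led that sum (3225 and 2992 CPM), and the sort markers differed more. *Fcgr1*, which encodes CD64, had 250.4 CPM and 394.3 CPM (log2 ratio 0.66), and *Mertk* 62.8 CPM and 48.7 CPM (log2 ratio -0.37). Both sort markers were named after their values were seen. Markers of T and NK cells summed to 2.53 CPM in Fcmr+/+ and 17.3 CPM in Fcmr-/- cells. Of 14 T and NK genes 11 were found in the files, and of these *Gzma* and *Ncr1* were at 0 in the Fcmr+/+ library.

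The 6 genes lie on 3 chromosomes of GRCm38. *Stat2* (ENSMUSG00000040033) occupies chr10:128270559-128292849 and *Stat6* (ENSMUSG00000002147) chr10:127642986-127660957, both on the plus strand. *Stat5b* (ENSMUSG00000020919, chr11:100780731-100850724, minus strand), *Stat5a* (ENSMUSG00000004043, chr11:100859351-100885169, plus strand) and *Stat3* (ENSMUSG00000004040, chr11:100885098-100939540, minus strand) stand side by side. *Stat4* (ENSMUSG00000062939) lies at chr1:51987148-52107189 on the plus strand. The 3' ends of *Stat5a* and *Stat3* overlap by 72 bases on opposite strands, and *Stat6* overlaps *Nab2* by 40 bases in the same manner. The sources used here do not say whether counting used the strand. Of the 50-base windows in the last 500 bases of annotated transcripts, 125 of 1974 in *Stat5a* recurred in *Stat5b*, and 140 of 902 in *Stat5b* recurred in *Stat5a*. Reads from such windows could be split between the pair. Of the *Stat2* windows 42 of 3102 recurred in other genes, of the *Stat4* windows 1 of 1019 in *Gm28177*, and of the *Stat3* and *Stat6* windows 0. *Gm28177*, which is not listed in the files, overlaps *Stat4* by 29929 bases on the same strand.

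Promoters were read because one member moved with interferon-induced genes. The interferon-stimulated response element (ISRE), the DNA element of type I interferon signaling, was searched as GAAA, 2 bases of any kind and GAAA again, and the gamma-activated site (GAS), the element bound by STAT pairs, as TTCNNNGAA, each on both strands in the 250 bases before the RefSeq start. Of 32851 mouse promoters, 2.98% held the first motif and 7.02% the second. All 6 genes had at least 1 promoter in the RefSeq table (GRCm38.p6). An ISRE letter match was found for *Stat2* and for the downstream start of *Stat4*, and a GAS letter match for 0 of the 6 genes. Both matching windows are printed 5′ to 3′ on the gene's strand, with the match in capitals, at chr10:128270248-128270497 for *Stat2* and chr1:52007990-52008239 for *Stat4*, both plus strand:
Stat2: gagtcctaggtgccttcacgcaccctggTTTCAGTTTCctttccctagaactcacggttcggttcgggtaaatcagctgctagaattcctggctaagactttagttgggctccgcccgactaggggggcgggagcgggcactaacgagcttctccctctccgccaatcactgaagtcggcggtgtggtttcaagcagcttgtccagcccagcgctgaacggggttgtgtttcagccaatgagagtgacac
Stat4: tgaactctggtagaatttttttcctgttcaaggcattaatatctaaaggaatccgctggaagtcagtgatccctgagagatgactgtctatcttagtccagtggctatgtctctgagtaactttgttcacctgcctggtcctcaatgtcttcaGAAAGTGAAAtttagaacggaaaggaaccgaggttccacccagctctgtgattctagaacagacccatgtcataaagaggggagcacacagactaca
The *Stat2* match lies on the minus strand from position -222 to -213 relative to the start, and the *Stat4* match on the plus strand from -97 to -88. A match is a run of letters and does not show binding. The bases after both of these starts, and after the second *Stat5b* start, were not found in an annotated transcript of the gene. Those after the other starts were found, so the starts with a match rest on RefSeq alone. Of the 15 type I interferon target genes with a promoter in the table, *Ifit1*, *Ifit3*, *Isg15*, *Oas1a*, *Rsad2* and *Trim30a* held the same ISRE letters. So did 9 of the 12 type II target genes with a promoter there, so these letters do not set type I targets apart.

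*Stat2* was the 1 member that differed past 1.5-fold between the libraries, the size limit used for all counts of genes here. Its level was 15.9 CPM (interval 15.2 to 16.6) in Fcmr+/+ and 29.1 CPM (28.2 to 30.1) in Fcmr-/- cells, a log2 ratio of 0.87 (0.79 to 0.95). Of 8701 genes with at least 5 CPM in either library, 230 (2.64%) were higher in Fcmr-/- cells past this limit and 189 (2.17%) were lower, and 98.8% had a lower ratio than *Stat2*. With the limit lowered to 25%, an alternative used in the closing section, 6.84% were higher and 7.85% lower. After every cell was drawn down to 5000 UMIs, a depth all cells reached, the share of cells with a *Stat2* UMI was 8.25% in Fcmr+/+ and 13.7% in Fcmr-/- cells. At full depth, which differs between the libraries, the shares were 22.8% and 30.2%. The sort held no cell type known to lack *Stat2*, *Stat3*, *Stat5a*, *Stat5b* or *Stat6*, so the part of free RNA in these shares could not be measured.

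The other 5 members lay within the limit. *Stat3*, the most abundant, had 115.8 CPM (interval 113.9 to 117.7) in Fcmr+/+ and 103.2 CPM (101.4 to 105.0) in Fcmr-/- cells, a log2 ratio of -0.17 (-0.20 to -0.13). *Stat6* came next in abundance, with 54.3 CPM (53.1 to 55.6) and 56.0 CPM (54.7 to 57.3), and the interval of its log2 ratio of 0.04 ran from -0.01 to 0.09. Each UMI of a 3' library stands for 1 transcript, so these levels were not divided by gene length. *Stat5b* was at 15.8 CPM in Fcmr+/+ and 17.9 CPM in Fcmr-/- cells (log2 ratio 0.18, interval 0.09 to 0.27). *Stat5a* was at 14.6 CPM and 13.2 CPM (log2 ratio -0.14, interval -0.23 to -0.04). The opposite signs of the pair were not kept in every setting. Without cells that held 2 or more UMIs of T and NK, dendritic or melanoma lists, *Stat5a* came to 0.039 and *Stat5b* to 0.29. That removal was broad and took 3259 of 6352 Fcmr+/+ and 4092 of 7999 Fcmr-/- cells. The most abundant genes of the dendritic and melanoma lists were *Traf1* (50.9 and 55.2 CPM) and *Mitf* (37.5 and 44.1 CPM). *Stat4* was the scarcest at 2.64 CPM and 2.67 CPM (log2 ratio 0.02, interval -0.21 to 0.24), below the 5 CPM minimum, and so was not among the genes tested against the limit. In order of level within the Fcmr+/+ library, the intervals of *Stat2* and *Stat5b* overlapped, as did those of *Stat5b* and *Stat5a*. In the Fcmr-/- library the order below *Stat6* was *Stat2*, *Stat5b*, *Stat5a* and *Stat4*, with no neighbors overlapping.

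**Figure D1:**
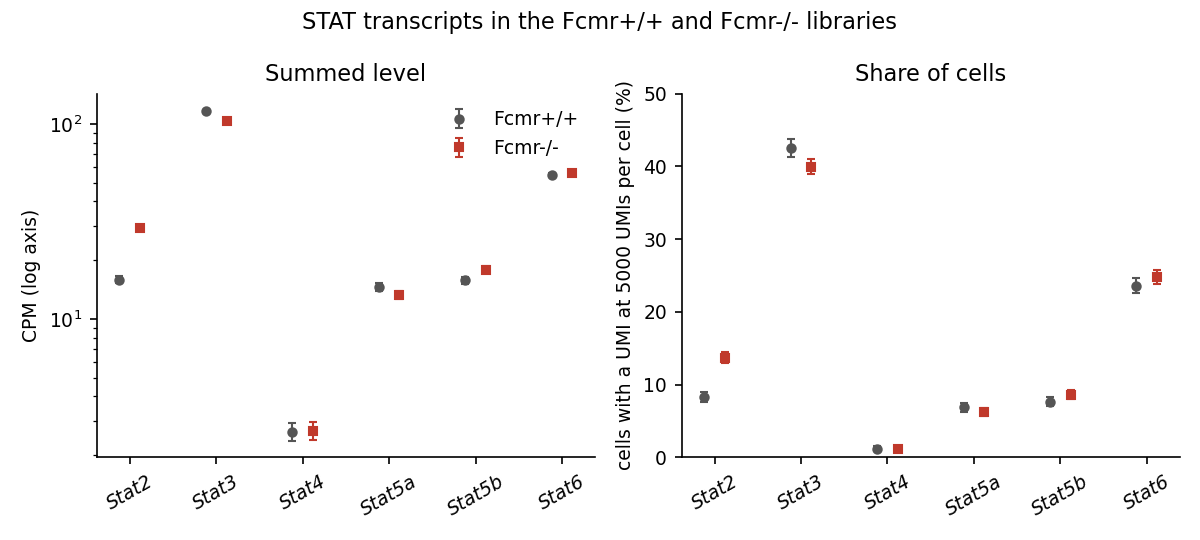
Levels of the 6 STAT transcripts as CPM on a log axis (left) and share of cells with a UMI after thinning to 5000 UMIs per cell (right), in Fcmr+/+ (grey circles) and Fcmr-/- cells (red squares), with exact 95% counting intervals and 1 library per genotype. *Stat2* has the widest gap between the libraries, at 15.9 against 29.1 CPM, and the CPM intervals of *Stat3*, *Stat5a* and *Stat5b* do not overlap either.

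Summed over the 6 genes the libraries were alike, at 219.0 CPM in Fcmr+/+ and 222.1 CPM in Fcmr-/- cells. The makeup of that sum differed. *Stat3* gave 52.9% of the STAT UMIs in Fcmr+/+ and 46.5% in Fcmr-/- cells, while *Stat2* gave 7.26% and 13.1%. A UMI of at least 1 member was found in 93.9% of Fcmr+/+ and 90.5% of Fcmr-/- cells. Most cells with *Stat2* held a single UMI (73.9% and 67.0% of positive cells), and the highest count in a cell was 7 and 9. *Stat3* reached 18 UMIs in an Fcmr+/+ and 21 in an Fcmr-/- cell.

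To set the STAT transcripts against macrophage states, the cells of both libraries were clustered together without the STAT genes, which gave 10 clusters, numbered by size. These clusters were built anew and carry no numbers of the study. Cluster 1 (87 Fcmr+/+ and 2236 Fcmr-/- cells) was led by *Cxcl9*, *Iigp1* and *Ly6a*, genes known for induction by interferon gamma. Cluster 8 (248 and 859 cells) was led by *Rsad2*, *Ifit1* and *Ifit3*, classical type I interferon targets. Cluster 2 (1332 and 834 cells) was led by *Ccl17*, *Ifitm1* and *Ear2* and held class II genes such as *H2-Eb1*. Cluster 3 was led by *Cxcl3* and *Csf3*, cluster 4 by the mitotic genes *Top2a* and *Ube2c*, and cluster 5 by *Apoe* and *Acp5*. Cluster 6 was led by *Hbb-bs*, *Slc2a1* and *Inhba*, cluster 7 by *Tfrc* and *Gas6*, cluster 9 by *Spp1* and *Mfge8*, and cluster 10 by *Bhlhe41* and *Adm*. The Fcmr-/- library gave 96.3% of the cells of cluster 1, 81.7% of cluster 9 and 77.6% of cluster 8, and in these state and library cannot be told apart. Cells were shallowest in clusters 6 and 8, with medians of 8946 and 9006 UMIs.

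*Stat2* was concentrated in cluster 8. Over both libraries it had 88.6 CPM there and 8.11 CPM in cluster 10, the lowest, a difference of 10.9-fold (interval 8.97 to 13.4). It was also at 31.5 CPM in cluster 1 and 27.0 CPM in cluster 2, and between 10.3 and 19.3 CPM in the other clusters above cluster 10. Cluster 8 held 2.41% of the UMIs of the Fcmr+/+ library but 14.7% of its *Stat2* UMIs. In the Fcmr-/- library it held 7.71% of all UMIs and 22.8% of the *Stat2* UMIs. Cluster 1 gave a further 36.1% of *Stat2* UMIs in Fcmr-/- cells with 33.1% of all UMIs.

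Within clusters *Stat2* was higher in Fcmr-/- cells in 9 of 10, with a median log2 ratio of 0.42, and the interval lay above 0 in 5 of them. The share of all genes that were higher past 1.5-fold in Fcmr-/- cells was 5.08%, 2.28%, 2.72%, 3.23%, 4.04%, 7.66%, 1.89%, 8.78%, 9.16% and 6.81% in clusters 1 to 10, and the share that were lower was 4.92%, 2.04%, 3.10%, 2.11%, 3.45%, 2.85%, 2.15%, 6.80%, 5.33% and 3.52%. *Stat2* passed the limit in clusters 4 and 6. In cluster 4, the mitotic one, it was 11.3 CPM in Fcmr+/+ and 24.4 CPM in Fcmr-/- cells (log2 ratio 1.11, interval 0.88 to 1.34). In cluster 6 it was 14.2 CPM and 25.1 CPM (log2 ratio 0.82, interval 0.47 to 1.17). The exception was cluster 8, the cluster with the most *Stat2*, at 96.7 CPM in Fcmr+/+ and 86.1 CPM in Fcmr-/- cells (log2 ratio -0.17, interval -0.36 to 0.03). Each cluster was then given the same weight in both libraries, namely its share of the UMIs of both libraries together. *Stat2* came to 20.1 CPM in Fcmr+/+ and 25.3 CPM in Fcmr-/- cells, a log2 ratio of 0.33 in place of 0.87. With cluster 8 alone left out the ratio over all cells was 0.81, and with cluster 1 alone left out it was 0.82. The ratio without both clusters was not computed. Without cells that held T, NK or dendritic-cell-defining UMIs it was 0.88. A sum over all cells mixes the makeup of clusters with the level within them. The ratio at shared weights holds that makeup fixed for these 10 clusters only, and differences of state within a cluster remain in it. The part of ambient RNA was not tested.

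**Figure D2:**
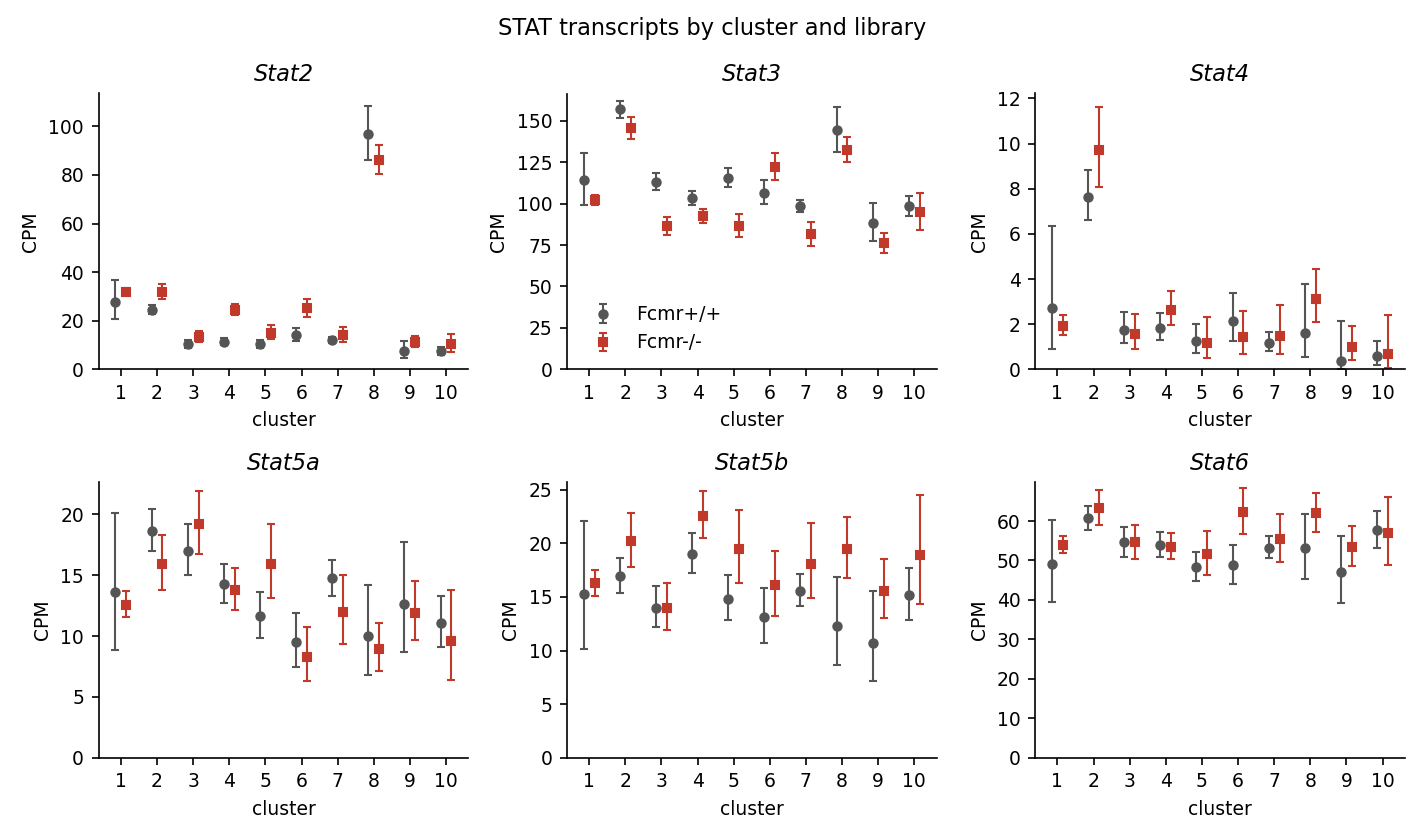
CPM of each STAT transcript in the 10 clusters, in Fcmr+/+ (grey circles) and Fcmr-/- cells (red squares), with exact 95% Poisson intervals. *Stat2* peaks in cluster 8 in both libraries and *Stat4* in cluster 2, while *Stat6* runs nearly level from 49.5 to 61.5 CPM over both libraries.

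The cells were also ordered by the share of their UMIs from 20 type I interferon targets, a list that holds no STAT gene, and cut into 5 bins of equal size over both libraries. A bin is a range of this score and not a cell type. In bin 1, the lowest, *Stat2* was at 5.89 CPM in Fcmr+/+ and 8.16 CPM in Fcmr-/- cells, and in bin 3 at 14.6 CPM and 18.8 CPM. In bin 5 it was at 54.9 CPM and 62.0 CPM. The level thus climbed with the score in both libraries, and in each bin *Stat2* was higher in Fcmr-/- cells, with log2 ratios of 0.18 to 0.51 and a median of 0.36. Bin 5 held 12.9% of Fcmr+/+ and 25.7% of Fcmr-/- cells. With each bin at the same weight in both libraries, the log2 ratio was 0.32.

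The same ordering by 15 type II interferon targets gave another picture. In bins 1 to 4 *Stat2* was higher in Fcmr-/- cells, with log2 ratios from 0.22 to 0.55. In bin 5 it was lower, at 63.4 CPM in Fcmr+/+ and 44.4 CPM in Fcmr-/- cells (log2 ratio -0.51, interval -0.68 to -0.34). The libraries filled that bin from different clusters. It held 351 Fcmr+/+ cells, 41.6% of them from cluster 8, and 2519 Fcmr-/- cells, 53.4% of them from cluster 1 and 21.6% from cluster 8. Type I targets summed to 6346 CPM in the Fcmr+/+ and 2944 CPM in the Fcmr-/- cells of the bin. Within the bin *Stat2* was lower in the Fcmr-/- cells of cluster 8, at 121.6 CPM and 94.4 CPM (log2 ratio -0.37, interval -0.59 to -0.13). In cluster 1 it was at 28.8 CPM and 35.5 CPM (log2 ratio 0.30, interval -0.27 to 0.94). The libraries were closest in the cells outside clusters 1 and 8, at 38.6 CPM and 38.0 CPM (log2 ratio -0.02, interval -0.32 to 0.29). With each bin at the same weight in both libraries, *Stat2* showed nearly equal levels (24.3 CPM in Fcmr+/+ and 24.2 CPM in Fcmr-/- cells).

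**Figure D3:**
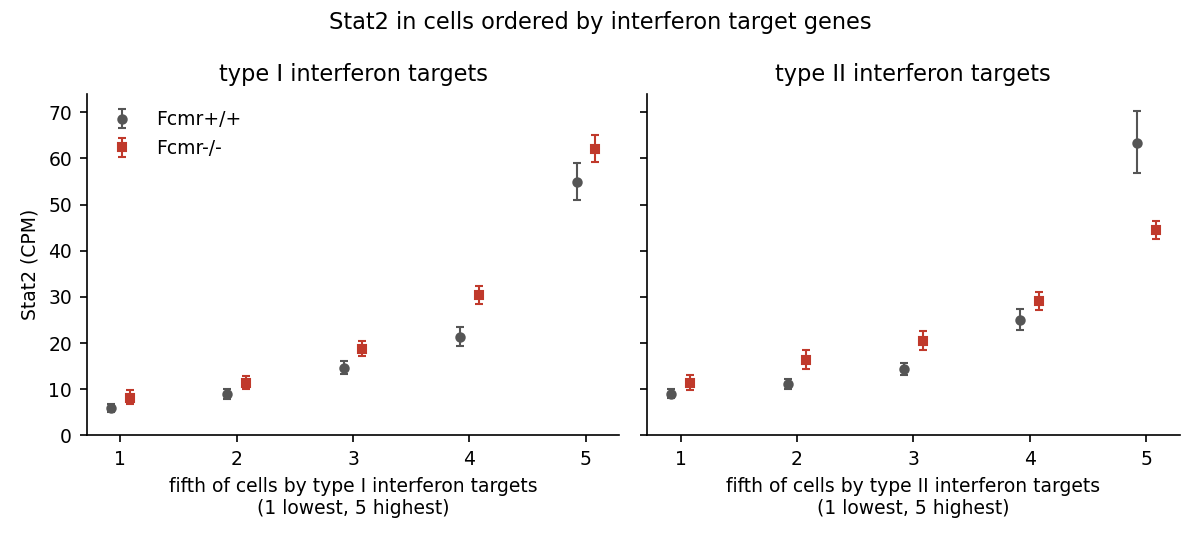
*Stat2* (CPM, exact 95% Poisson intervals) in 5 bins of all cells ordered by type I (left) or type II (right) interferon target genes, in Fcmr+/+ (grey circles) and Fcmr-/- cells (red squares). It climbs with both scores, and in type II bin 5 the order of the libraries turns, to 63.4 against 44.4 CPM.

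Genes with a pattern like that of *Stat2* were interferon-induced. Likeness was the Pearson correlation of log2(CPM + 1) over the 20 groups formed by 10 clusters and 2 libraries, among 5255 genes with at least 20 CPM. These groups share libraries and depth and are not independent, so the values are descriptions. The closest were *Oasl2* (r = 0.97), *Herc6*, *Sp140*, *Irf7* and *Xaf1* (r = 0.96 for the last). With the summed type I targets r was 0.95 and with the type II targets 0.88. *Irf9*, the partner of *Stat2*, had 30.5 CPM in Fcmr+/+ and 40.7 CPM in Fcmr-/- cells, a log2 ratio of 0.42 and within the limit. *Irf9* too was highest in cluster 8, at 74.0 CPM over both libraries against 22.3 to 42.9 CPM elsewhere. Of the 3 interferon regulatory factors listed with *Stat2*, *Irf7*, itself a type I target, was the 1 past the limit (69.7 CPM and 139.5 CPM). *Irf1*, itself a type II target, was at 49.1 CPM and 59.3 CPM.

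The receptors and kinases upstream lay within the limit. *Ifnar1* and *Ifnar2*, the chains of the type I receptor, had log2 ratios of 0.19 and -0.19. *Ifngr1* and *Ifngr2*, the chains of the type II receptor, had -0.24 and 0.05, so 0 of 4 receptor genes passed the limit. The intervals of all 4 left 0 out. Those of *Ifngr1* (-0.27 to -0.21) and *Ifnar2* (-0.22 to -0.15) lay below 0, and those of *Ifnar1* (0.15 to 0.23) and *Ifngr2* (0.01 to 0.08) above it. *Ifngr1* and *Ifnar2* were lower in Fcmr-/- cells in each cluster, while *Ifnar1* and *Ifngr2* went either way between clusters. Of the kinases, *Jak1* (138.3 and 143.9 CPM), *Jak2*, *Tyk2* and *Jak3* had log2 ratios between 0.06 and 0.16, and 0 of 4 passed. Of all genes tested, 2.64% were higher and 2.17% lower past the limit, so 0 of 4 does not set a list apart. The targets differed more. Of 20 type I targets, 10 were higher past the limit and 0 lower, with a median log2 ratio of 0.63 against 0.00 over all genes. *Isg15*, a ubiquitin-like protein, had 150.4 CPM and 275.1 CPM, while *Rsad2*, the antiviral protein viperin, had 173.7 CPM and 246.4 CPM and *Ifi204* 168.3 CPM and 240.7 CPM, both within it. Of 14 type II targets with enough counts, 13 were higher and 0 lower, with a median of 1.38. *Cxcl9*, a chemokine for T cells, had 14.5 CPM and 185.6 CPM, *Gbp2* 21.4 CPM and 138.9 CPM, *Gbp7* 32.9 CPM and 87.9 CPM, and *Cd274*, which encodes PD-L1, 63.3 CPM and 108.7 CPM. Most sums of markers of other cells were higher in the same library too. T and NK markers are given above, the 7 melanoma markers summed to 78.0 CPM in Fcmr+/+ and 108.2 CPM in Fcmr-/- cells, and the 6 neutrophil markers to 31.2 CPM and 47.7 CPM. *Mitf* alone gave 37.5 CPM and 44.1 CPM of the melanoma sum, and *Csf3r* 15.7 CPM and 24.1 CPM of the neutrophil sum. The 4 B cell markers found in the files went the other way, at 12.4 CPM and 10.4 CPM. The part of other cells in these differences was not tested.

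*Stat3* varied less between states and was lower in Fcmr-/- cells in 9 of 10 clusters. Over both libraries it ran from 79.2 CPM in cluster 9 to 153.2 CPM in cluster 2, a 1.93-fold range (interval 1.80 to 2.08), with 135.5 CPM in cluster 8. Its median log2 ratio within clusters was -0.16, its interval lay below 0 in 5 clusters, and 0 clusters passed 1.5-fold. The difference was widest in cluster 5, at 115.5 CPM in Fcmr+/+ and 86.5 CPM in Fcmr-/- cells (log2 ratio -0.42). In cluster 6 the direction turned, at 106.6 CPM and 122.3 CPM (log2 ratio 0.20). Of all genes tested in that shallow cluster, 7.66% were higher and 2.85% lower past the limit in Fcmr-/- cells. *Stat3* was also lower in Fcmr-/- cells in each bin of the type I score (log2 ratios from -0.34 to -0.09) and of the type II score (from -0.40 to -0.21). The sum of the 12 dissociation stress genes was lower in the same library, at 6879 CPM in Fcmr+/+ and 6207 CPM in Fcmr-/- cells. Of these genes 2 (*Jun* and *Egr1*) were lower past the limit and 0 higher, with a median log2 ratio of -0.20. Within the limit, 4 of the 12 were higher in Fcmr-/- cells. Over the 20 groups their sum and *Stat3* had an r of 0.70. This was not particular to them, as r was 0.75 with the class II genes and 0.69 with the type I targets. Some lists of other states had a negative r. The part of the stress genes in the *Stat3* difference was not tested. The genes most like *Stat3* were *Pmaip1* (r = 0.88), *Arf2*, *Phf21a*, *Rara* and *Ist1*.

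Around *Stat3*, 1 receptor gene and 1 target passed the limit, and some genes within it differed by more than *Stat3* did. Of all genes tested, 2.64% were higher and 2.17% lower past the limit. Of the 7 receptor genes with enough counts, *Csf3r*, the G-CSF receptor, was past the limit, at 15.7 CPM in Fcmr+/+ and 24.1 CPM in Fcmr-/- cells, and was named after its value was seen. *Il10rb* (168.4 and 170.2 CPM), *Il10ra* (47.3 and 44.7 CPM), *Il6ra* (45.1 and 34.9 CPM) and *Il6st* (33.1 and 31.8 CPM), which form the IL-10 and IL-6 receptors, were within it. So was *Lifr*, also named after its value was seen, at 23.1 CPM and 15.7 CPM (log2 ratio -0.56). Of 13 targets 0 were higher and 1 lower, with a median log2 ratio of -0.02. That gene, *Il10*, was also picked out by its value and had 116.3 CPM and 49.6 CPM. The 4 most abundant targets, *Fos*, *Junb*, *Ier3* and *Zfp36*, had log2 ratios between -0.16 and 0.07, and all but *Ier3* also belong to the list of dissociation stress genes. *Socs3*, the inhibitor that *Stat3* induces, had 188.9 CPM and 151.5 CPM.

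**Figure D4:**
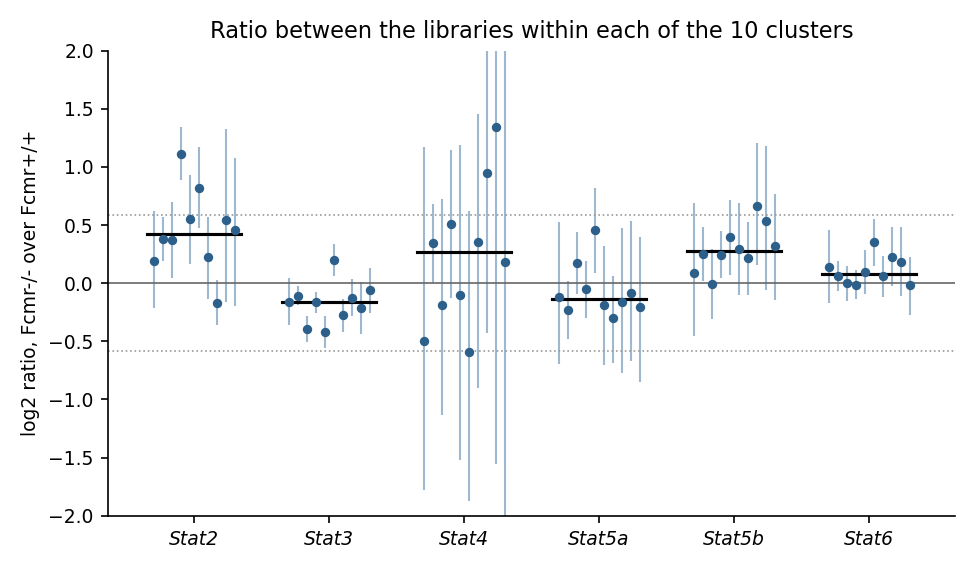
Log2 ratio of Fcmr-/- over Fcmr+/+ cells for each STAT transcript within clusters 1 to 10, left to right, with exact 95% conditional intervals, medians as black bars and dotted lines at 1.5-fold either way. *Stat2* and *Stat5b* lie above 0 and *Stat3* below 0 in 9 of 10 clusters each, and intervals of *Stat4* that pass the axis are cut.

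*Stat5a* and *Stat5b* did not follow the same states. *Stat5a* was highest in cluster 3 (18.0 CPM) and lowest in cluster 6 (8.93 CPM), a 2.01-fold range, and *Stat5b* was highest in cluster 4 (20.7 CPM) and lowest in cluster 3 (14.0 CPM), a 1.48-fold range (interval 1.31 to 1.67). Over the 20 groups their r was 0.09. *Stat5b* was higher in Fcmr-/- cells in 9 of 10 clusters, with a median log2 ratio of 0.28, and past the limit in cluster 8, from 38 UMIs (12.3 CPM) and 187 UMIs (19.5 CPM). *Stat5a* was lower in 8 of 10 clusters with a median of -0.14. In cluster 5 it was at 11.6 CPM in Fcmr+/+ and 15.96 CPM in Fcmr-/- cells, and this was the 1 cluster whose interval left 0 out. The genes most like *Stat5a* included *Dbi* (r = 0.86), *Fbl*, *Mrpl33* and *Top1*, and those most like *Stat5b* were *Tmem168* (r = 0.90), *Zfp148*, *Stag2*, *Kmt2a* and *Dock11*.

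Of the 6 receptor genes that feed STAT5, 2 were higher past the limit and 0 lower, against 2.64% and 2.17% of all genes tested. *Il7r*, the IL-7 receptor chain, had 128.8 CPM in Fcmr+/+ and 215.0 CPM in Fcmr-/- cells, and *Il2rg*, the common gamma chain, 32.8 CPM and 64.2 CPM. *Csf2rb* (118.9 and 134.4 CPM) and *Csf2ra* (113.4 and 117.4 CPM), the chains of the GM-CSF receptor, were within it. Of 8 STAT5 targets 0 passed either way, with a median log2 ratio of 0.09. Among them *Id2* had 594 CPM and 497 CPM, *Cdkn1a* 526 CPM and 519.6 CPM, *Pim1* 432 CPM and 427 CPM, and *Osm* 139.3 CPM and 169.5 CPM.

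*Stat6* was the steadiest member. It ran from 49.5 CPM in cluster 5 to 61.5 CPM in cluster 2 over both libraries, a 1.24-fold range (interval 1.15 to 1.34). The median log2 ratio within clusters was 0.08. Cluster 6 had the widest difference, at 48.9 CPM in Fcmr+/+ and 62.3 CPM in Fcmr-/- cells (log2 ratio 0.35). In that cluster more genes were higher than lower past the limit, as given above. The genes most like *Stat6* were *Rbpj* (r = 0.80), *Jak1*, *Cmip*, *Ddx17* and *Ddx6*. *Il4ra* (97.5 and 93.7 CPM) and *Il13ra1* (30.04 and 35.6 CPM), the receptor chains on its list, were within the limit. That list did not hold *Il2rg*, the common gamma chain, which can pair with *Il4ra* and was past the limit (32.8 and 64.2 CPM). Of 14 STAT6 targets 1 was higher and 2 were lower past the limit, against 2.64% and 2.17% of all genes tested. The higher one, *Socs1*, is an interferon target too (8.64 and 15.98 CPM), and the lower ones were *Retnla* (74.0 and 38.1 CPM) and *Ccl17* (12.8 and 5.43 CPM), all 3 named after their values were seen. The 4 most abundant targets lay within the limit and on both sides of 0. *Arg1*, the arginase of alternative activation, had 1002 CPM and 1308 CPM and *Tgm2* 124.9 CPM and 166.9 CPM, while *Mrc1*, the mannose receptor, had 907 CPM and 627 CPM and *Klf4* 260.5 CPM and 184.9 CPM.

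*Stat4* was rare and unevenly spread. The Fcmr+/+ library held 339 *Stat4* UMIs, spread over 291 cells, and the Fcmr-/- library 333, spread over 273 cells. Over both libraries cluster 2 had 8.34 CPM and cluster 10 0.60 CPM, a 13.9-fold range with a wide interval (6.96 to 32.4), since cluster 10 held 8 UMIs. Cluster 2 gave 55.8% of *Stat4* UMIs in the Fcmr+/+ library with 19.2% of all UMIs, and 35.7% in the Fcmr-/- library with 9.82%. Within cluster 2 the level was 7.65 CPM (interval 6.60 to 8.82) in Fcmr+/+ and 9.72 CPM (8.05 to 11.6) in Fcmr-/- cells. Outside it the levels were 1.45 CPM and 1.90 CPM. The genes most like *Stat4* were *Tppp3* (r = 0.90), *Ccnt1*, *Cysltr1*, *Ifitm1* and *Nr4a3*, and with the class II genes r was 0.84.

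Because *Stat4* is a T and NK gene, it was read beside markers of other cells. In the 32 Fcmr+/+ cells with 2 or more T and NK UMIs it had 14.9 CPM, and in the 59 such Fcmr-/- cells 31.7 CPM, and these cells gave 3.83% and 11.1% of its UMIs. In cells with a UMI of a gene that defines dendritic cells (*Flt3*, *Zbtb46*, *Ccr7*, *Xcr1* or *Clec9a*) it had 14.8 CPM and 15.6 CPM. With both kinds of cells left out, cluster 2 had 6.26 CPM (interval 5.27 to 7.38) in Fcmr+/+ and 7.06 CPM (5.55 to 8.85) in Fcmr-/- cells. The other clusters had 1.40 CPM and 1.49 CPM. The defining genes were sparse, from 16 UMIs (*Xcr1*) to 203 (*Ccr7*) in the Fcmr+/+ library. Dendritic cells without such a UMI stay in, so the removal cannot show whether they carry the remaining *Stat4*. In cluster 2 the cells with a *Stat4* UMI carried more T and NK marker UMIs than those without. These markers summed to 16.5 CPM against 3.15 CPM in Fcmr+/+ and 65.9 CPM against 29.2 CPM in Fcmr-/- cells. The cells with a *Stat4* UMI also carried more of the 11 dendritic markers. The dendritic sums were 242.6 CPM against 115.0 CPM in Fcmr+/+ and 496 CPM against 145.9 CPM in Fcmr-/- cells. Over all cells *Traf1*, which is not specific to dendritic cells, gave most of the dendritic list. It had 50.9 of 60.4 CPM over all Fcmr+/+ and 55.2 of 70.9 CPM over all Fcmr-/- cells. Its part in the cluster 2 cells with and without *Stat4* was not computed. Macrophage markers were high in both, at 8196 CPM against 9110 CPM in Fcmr+/+ and 8131 CPM against 9144 CPM in Fcmr-/- cells. The cells with a *Stat4* UMI were deeper, with a median of 18972.5 UMIs against 14300.5 in the Fcmr+/+ library.

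**Figure D5:**
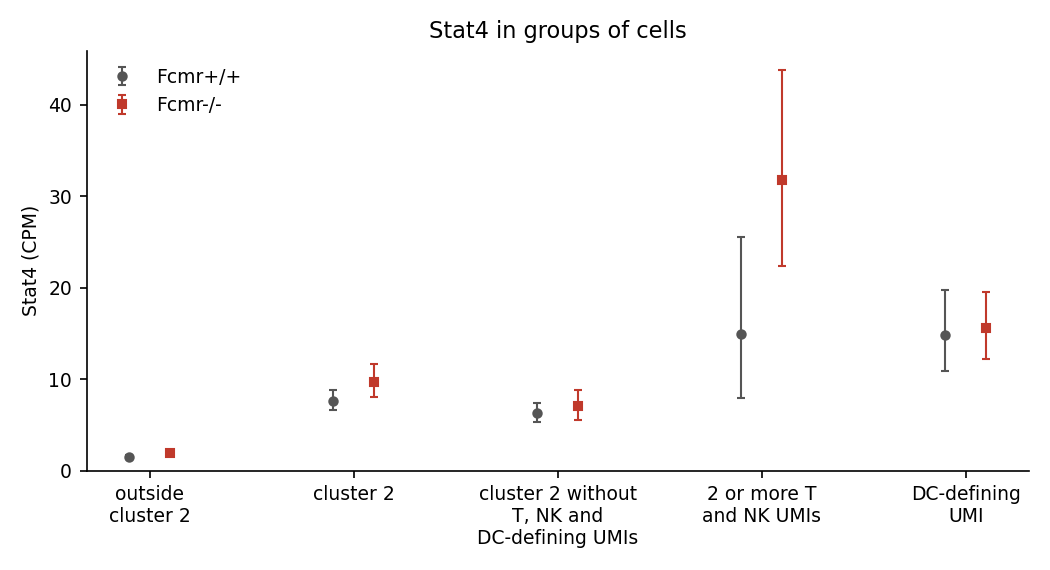
*Stat4* (CPM, exact 95% Poisson intervals) outside cluster 2, in cluster 2, in cluster 2 without cells that hold T, NK or dendritic-cell-defining UMIs, and in cells of either library with such UMIs, in Fcmr+/+ (grey circles) and Fcmr-/- cells (red squares). After the removal, which can miss dendritic cells, cluster 2 is at 6.26 and 7.06 CPM. It lies above the cells outside it and below the cells with T, NK or dendritic-cell-defining UMIs.

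The receptor genes of *Stat4* were low as well. *Il12rb1*, a chain shared by the IL-12 and IL-23 receptors, had 0.69 CPM in Fcmr+/+ and 8.63 CPM in Fcmr-/- cells, a log2 ratio of 3.65 from 88 and 1075 UMIs. It was highest in cluster 1, at 10.9 CPM in Fcmr+/+ and 18.0 CPM in Fcmr-/- cells, and not in cluster 2, where it had 0.65 CPM and 2.37 CPM. *Il12rb2*, the chain special to IL-12, had 0.52 CPM and 0.78 CPM. Of the 5 *Stat4* targets 0 reached 5 CPM. *Il18rap*, a chain of the IL-18 receptor and the most abundant of them, had 156 UMIs in the Fcmr+/+ and 112 in the Fcmr-/- library (log2 ratio -0.43, interval -0.80 to -0.08). *Ifng* and *Tbx21* each had 1 UMI in the Fcmr+/+ library, against 41 and 34 UMIs in the Fcmr-/- library. T and NK cells express both genes, and the summed T and NK markers were higher in that library too (2.53 and 17.3 CPM). The part of such cells in these counts was not tested.

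Among the inhibitors of the pathway, 3 of 15 with enough counts were higher past the limit and 0 lower. These were *Ptpn6*, the phosphatase SHP-1 (118.3 CPM in Fcmr+/+ and 184.9 CPM in Fcmr-/- cells), and, named after their values were seen, *Socs1* and *Usp18*, which is also a type I target (14.2 and 25.2 CPM). *Ptpn1* (161.6 and 147.6 CPM) and *Ptpn2* (33.1 and 40.6 CPM) were within it. *Usp18* and *Socs1* were highest in cluster 8, like *Stat2*, at 126.0 CPM and 46.9 CPM over both libraries, whereas *Ptpn6* was highest in cluster 1 at 241.3 CPM. Over all 42 pathway genes with enough counts, without the STATs themselves, 8 were higher and 0 lower, with a median log2 ratio of 0.05. Of the 8701 genes tested, 2.64% were higher and 2.17% lower. *Irf7*, *Socs1* and *Usp18* are among the 8 and also among the interferon targets counted above, so these counts overlap.

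Detection of one STAT transcript said little about detection of another in the same cell. In cells thinned to 5000 UMIs, the number with both genes of a pair was divided by the number expected from the separate shares. The median over the 15 pairs was 1.05 in Fcmr+/+ and 1.03 in Fcmr-/- cells. *Stat2* with *Stat3* in Fcmr-/- cells was the 1 pair in either library whose interval left 1 out at this depth, with 506 cells for 436 expected, a ratio of 1.16 (interval 1.06 to 1.27). In Fcmr+/+ cells that pair had 239 cells for 223 expected. The call depended on depth. At 10000 UMIs, which 1189 Fcmr+/+ and 2661 Fcmr-/- cells did not reach, the interval of *Stat2* with *Stat3* in Fcmr-/- cells held 1 (ratio 1.06, interval 0.986 to 1.14). At that depth *Stat2* with *Stat4* (ratio 1.55, interval 1.02 to 2.26) and *Stat3* with *Stat4* (ratio 1.23, interval 1.01 to 1.49) left it out in Fcmr+/+ cells. *Stat5a* with *Stat5b* had 36 cells for 33.5 expected in Fcmr+/+ and 35 for 43.0 in Fcmr-/- cells, so no excess of cells with both paralogs was detectable at this depth.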

How the data were processed

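Droplet libraries (10x Chromium Single Cell 3') were analysed from the UMI counts per gene and cell that the authors deposited, made with Cell Ranger on GRCm38 and not normalized. Per the labels, Seurat 2.1.0 was used downstream by the authors. Genes found in 3 or more cells and cells with 200 to 7000 genes and at most 30% mitochondrial UMIs were kept, as in the study's methods, which left 14351 of 14409 barcodes. Clustering used Seurat 5.3.0 (10 principal components, 30 neighbors, resolution 0.8) on 1337 variable genes, after *Stat2* and *Stat4* were left out. Sums, intervals and thinning used Python 3.11.15, numpy 2.4.6 and scipy 1.17.1, and were tested on simulated data. Scrublet (scanpy 1.11.5) called 0 doublets in each library, so it was taken not to have worked, and the highest scores were removed as an alternative. TMM factors came from edgeR 4.0.16 and median-ratio factors from DESeq2 1.42.0.

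Each library was 1 sample, so no p-value was computed. A gene counted as differing past 1.5-fold if it had at least 5 CPM in either library. The text names the 6 genes, the 4 most abundant genes of each pathway and target list, the 5 genes most like each member, and *Fcmr*. Genes outside this rule are said to be so, apart from leading genes of clusters, promoter matches and genes that give a list's count or sum. Members and lists were chosen with earlier results of these data known. A further gene of the family, and 1 of the genes most like *Stat5a*, are not reported here.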

Additional observations from a re-analysis of the deposited data

Results flagged for a closer look

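The log2 ratio of Fcmr-/- over Fcmr+/+ cells for *Stat3* was -0.42 in cluster 5, led by *Apoe* and *Acp5*, and 0.20 in cluster 6, led by *Hbb-bs* and *Slc2a1*, with counting intervals on opposite sides of 0. In cluster 6, 7.66% of all genes tested were higher and 2.85% lower past 1.5-fold. For *Stat2* the ratio was 0.55 in bin 2 of cells ordered by type II interferon targets and -0.51 in bin 5, the highest. With 1 library per genotype, neither difference between these groups of cells was tested.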

How the results depend on the processing

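Of 200 recomputed summary values, 171 stayed within the counting interval of the reported value (or within 1.5 times a count), 29 moved past it, and 0 reversed a ratio past the limit. The log2 ratio of *Stat2* was 0.77 after thinning to 5000 UMIs and 0.33 with each cluster at the same weight in both libraries. That of *Stat3* was -0.11 after thinning. Removal of the 3259 Fcmr+/+ and 4092 Fcmr-/- cells with 2 or more T, NK, dendritic or melanoma UMIs gave -0.34 for *Stat4*, 0.039 for *Stat5a*, 0.29 for *Stat5b* and 0.11 for *Stat6*. For *Stat2*, alternatives chosen after the data were seen gave 0.88 with a narrower removal of 158 and 284 cells and 0.86 without shared barcodes. They gave 0.81 without cluster 8 alone and 0.82 without cluster 1 alone, and both clusters were not removed together. Without thinning, the log2 ratio of the share of positive cells was 0.40 for *Stat2*, -0.20 for *Stat3*, -0.40 for *Stat5a*, -0.16 for *Stat5b* and -0.18 for *Stat6*, in libraries of unequal depth.

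The log2 ratio of the highest over the lowest cluster was 2.03 (*Stat2*) and 0.66 (*Stat3*) at resolution 0.4, 5.15 (*Stat4*) and 1.51 (*Stat5a*) at resolution 1.2, and 3.14 (*Stat2*), 1.09 (*Stat3*), 5.84 (*Stat4*) and 1.88 (*Stat5a*) with 20 principal components. It was 2.32 for *Stat2* with interferon targets left out of the variable genes. The median ratio within clusters was -0.23 (*Stat3*) and 0.0047 (*Stat4*) at resolution 0.4, -0.055 (*Stat4*) and 0.16 (*Stat6*) at resolution 1.2, and -0.18 (*Stat4*) with 20 components. With the limit at 25% above the other library 2 pathway genes were lower, and 35 target genes were higher and 9 lower. Of 140 recomputed counts for single lists 16 moved past 1.5 times. The STAT6 targets moved most often: 1 higher and 2 lower became 2 higher with TMM, 0 higher and 1 lower at 20 CPM or more, 3 higher without a filter, and 4 higher and 6 lower at the 25% limit, where 3 STAT3 targets were lower. The cause was not tested. TMM and median-ratio scaling shifted all ratios by 0.011 and 0.00069. Leaving out a replicate was not possible with 1 library per genotype. No paired analysis was possible because each genotype has 1 library. *Stat4* rests on 339 and 333 UMIs, which limits every statement about it.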
